A study of Camellia sinensis with 12 samples.

Results

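The young stem (sS1) and the first leaf (sL1) of Xinyang Maojian (XYMJ) green tea (Camellia sinensis) were compared for their conserved microRNAs (miRNAs), with 3 small RNA libraries for each tissue. The count tables list 650 miRNA IDs, and the comparison covered 222 of them, those whose counts over the 12 libraries of the series added up to 10 or more. Of the 222 tested IDs, 204 carry a family name (cas-MIR396-3 is a member of the MIR396 family) and 18 are named only as undef. The plants were 3-year-old XYMJ plants from tea gardens of 1 plantation, with no treatment named. sS1 is the stem segment between the first and the second leaf, sL1 is the first leaf under the bud, and the bud (sBud) and the second leaf (sL2), with 3 libraries each, entered the minimum of counts and the estimate of the spread, and are given where a level is set beside them. The methods call the libraries of a tissue biological replicates, but do not say how many plants went into each, so p-values measure the spread between these libraries.

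Plant miRNAs are short RNAs cut from hairpin precursors that guide ARGONAUTE proteins to messenger RNAs of matching sequence, which are then cleaved or translated less. Many conserved families act on transcription factors that set the growth, polarity and maturation of organs. In Arabidopsis, for example, miR396 limits the growth-regulating factors (GRFs) that promote cell division in leaves, and miR166 sets where the HD-ZIP III factors of the upper leaf side and of vascular tissue are active.

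Tissue names follow the sample titles and group tags. The labels give the tissue as leaf for every library and an mRNA kit for the library preparation, whereas the methods describe small RNA libraries. miRNA counts hold no defining marker of stem or leaf, so the tissue labels could be checked only by how the libraries group. The sS1 libraries held 746562, 586848 and 540019 counts, and the sL1 libraries held 387379, 540999 and 387015. The 5 most abundant IDs took between 83% and 85% of the counts in sS1 libraries and between 84% and 85.1% in sL1 libraries, so the remaining IDs share a small part of the depth. A count of 0 allows up to 3 counts, which corresponds to 4.69 to 6.23 CPM in sS1 libraries and to 5.93 to 8.51 CPM in sL1 libraries. CPM are counts scaled to a library of 1000000 counts by the library total and the TMM factor of edgeR. They are shares of a library, and in bulk tissue fewer cells of a type and less of a miRNA per cell cannot be told apart.

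One library stood apart from its replicates. The counts of sL1 replicate 2 differed less from those of sS1 replicate 2 (chi-square per degree of freedom 44.5) than from those of sL1 replicate 1 (124) and sL1 replicate 3 (116). The other pair of sL1 libraries differed by 50.2, the pairs of sS1 libraries by 58.6 to 107, and the pairs of sS1 libraries with sL1 replicates 1 and 3 by up to 343 and in each case by more than 124. In turn, sS1 replicate 2 differed less from sL1 replicate 2 than from sS1 replicate 3 (58.6) and sS1 replicate 1 (107). sL1 replicate 2 also had the largest total of the sL1 libraries, within the range of the sS1 totals. Whether it holds stem tissue, or sS1 replicate 2 holds leaf tissue, was not tested. sL1 replicate 2 differed from sS1 replicate 1 by 155 and from sS1 replicate 3 by 113. In log-scale correlation over the 222 IDs it was nearest to sS1 replicate 1 (r = 0.963), then to sL1 replicate 1 (0.956), sS1 replicate 3 (0.955), sS1 replicate 2 (0.945) and sL1 replicate 3 (0.940). It was kept, and values without it are given below for many of the calls and values that depended on it. Because it was singled out from these same counts, p-values without it do not allow for that choice.

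miRNAs that differed by more than 2-fold in either direction, with p below 0.05 before adjustment in the quasi-likelihood test of edgeR, were called differentially expressed miRNAs (DEMs). Of 222 tested IDs, 16 were DEMs (7.21%). In sS1, 10 (4.50%) were higher and 6 (2.70%) were lower than in sL1. A total of 30 IDs (13.5%) had an unadjusted p below 0.05, 17 of them higher and 13 lower in sS1, and 14 of the 30 changed by less than 2-fold. No ID (0 of 222, 0%) had a Benjamini-Hochberg adjusted p below 0.05, and the smallest was 0.0741. With all libraries, DESeq2 gave 5 such IDs and limma-voom gave 2. By DESeq2 they were cas-MIR396-3 (adjusted p = 0.00919), cas-MIR171_2-6 (0.01), cas-MIR390-1 (0.01), cas-MIR171_1-17 (0.0283) and cas-MIR166-32 (0.0413). By limma-voom they were cas-MIR396-3 (adjusted p = 0.0122) and cas-MIR171_2-6 (0.0364). Of these, cas-MIR396-3 and cas-MIR171_2-6 were higher in sS1 and the others lower. Each higher or lower below is therefore a statement at the unadjusted threshold unless an adjusted p is given.

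The median log2 fold change of all tested IDs was −0.01. A total of 107 IDs were higher and 111 lower in sS1. For 36 IDs (16.2%) the libraries of the tissues did not overlap, with 16 above and 20 below in sS1, and 9 of the 16 DEMs were among them. For 44 of the 205 IDs that had an interval, the 95% interval lay inside a 2-fold change in either direction. Without sL1 replicate 2 this held for 30 IDs. Another 42 IDs had fitted fold changes beyond 2-fold without being DEMs. Where the tissue with more counts averaged 10 or more (131 IDs), the IDs had a median SE of 0.39 on the log2 scale, and 14 of the 16 DEMs belonged to them. The split of DEMs depended on the scaling, with 9 higher and 10 lower in sS1 with library size only, 10 and 9 with RLE size factors, and 9 and 9 without the 5 most abundant IDs.

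**Figure D1:**
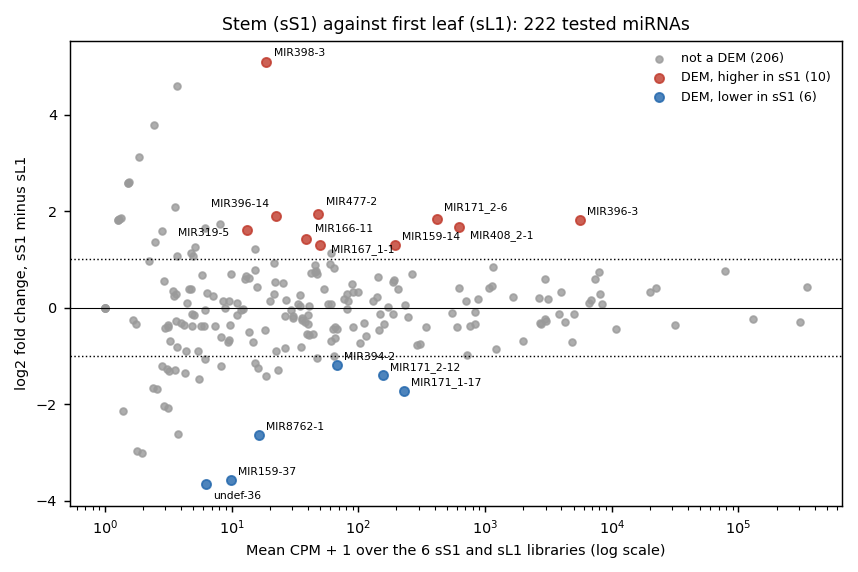
The log2 fold change of sS1 minus sL1 (vertical axis) is plotted against the mean CPM + 1 over the 6 libraries (horizontal axis, log scale) for 222 IDs, with dotted lines at a 2-fold change. The 10 DEMs higher in sS1 and the 6 lower in sS1 are named, and folds beyond 2 are crowded among the IDs with few counts at the left.

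The miR396 family was the group with the most abundant DEM. cas-MIR396-3 had 5376, 4802 and 4630 counts in sS1 libraries, against 589, 2474 and 414 counts in sL1 libraries. In CPM this was 8786 ± 715 in sS1 and 2494 ± 2079 in sL1 (SD, n = 3 each). Every sS1 library lay above every sL1 library, and sL1 replicate 2 lay well above the other sL1 libraries. This was a log2 fold change of 1.82 (SE 0.39, adjusted p = 0.0741 by edgeR), and it was 2.82 (SE 0.19, adjusted p = 9.91e-07 by edgeR) without sL1 replicate 2. The same ID had 551 ± 22.3 CPM in sBud and 5447 ± 734 CPM in sL2 (SD, n = 3 each), so sS1 had the highest mean of the 4 tissues.

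cas-MIR396-11, the family's most abundant member, had 58154, 52967 and 53901 counts in sS1 libraries, against 17744, 47622 and 13580 counts in sL1 libraries. The CPM ranges overlapped because sL1 replicate 2, at 94100 CPM, lay inside the sS1 range of 90900 to 112000 CPM. Its log2 fold change of 0.75 (SE 0.28) was under the DEM threshold, and it was 1.34 (SE 0.18, adjusted p = 0.000942 by edgeR) without that library. cas-MIR396-14 had 24, 11 and 22 counts in sS1 libraries, against 2, 9 and 1 counts in sL1 libraries. The libraries did not overlap in CPM, and the log2 fold change was 1.90 (SE 0.66, adjusted p = 0.199 by edgeR), or 3.11 without sL1 replicate 2. This member had 0 counts in the sBud libraries. Of 15 tested members, 2 were DEMs higher in sS1, where 4.50% of all tested IDs were, and 0 were lower. The median log2 fold change was 0.71, and 0.49 over the 14 members with at least 10 counts in the 6 libraries. Without sL1 replicate 2, 6 members were DEMs, all higher in sS1, and the median was 1.09. With all libraries, 11 members had a log2 fold change above 0 and 4 below, among them cas-MIR396-18 at −0.40 and cas-MIR396-6 at −0.10. Within the family, the share of cas-MIR396-3 was 8.3%, 8.16% and 7.79% in sS1 libraries, against 3.09%, 4.84% and 2.83% in sL1 libraries. Reads that match several members could have been counted on any of them, since the counting rule is not given in the sources used here.

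**Figure D2:**
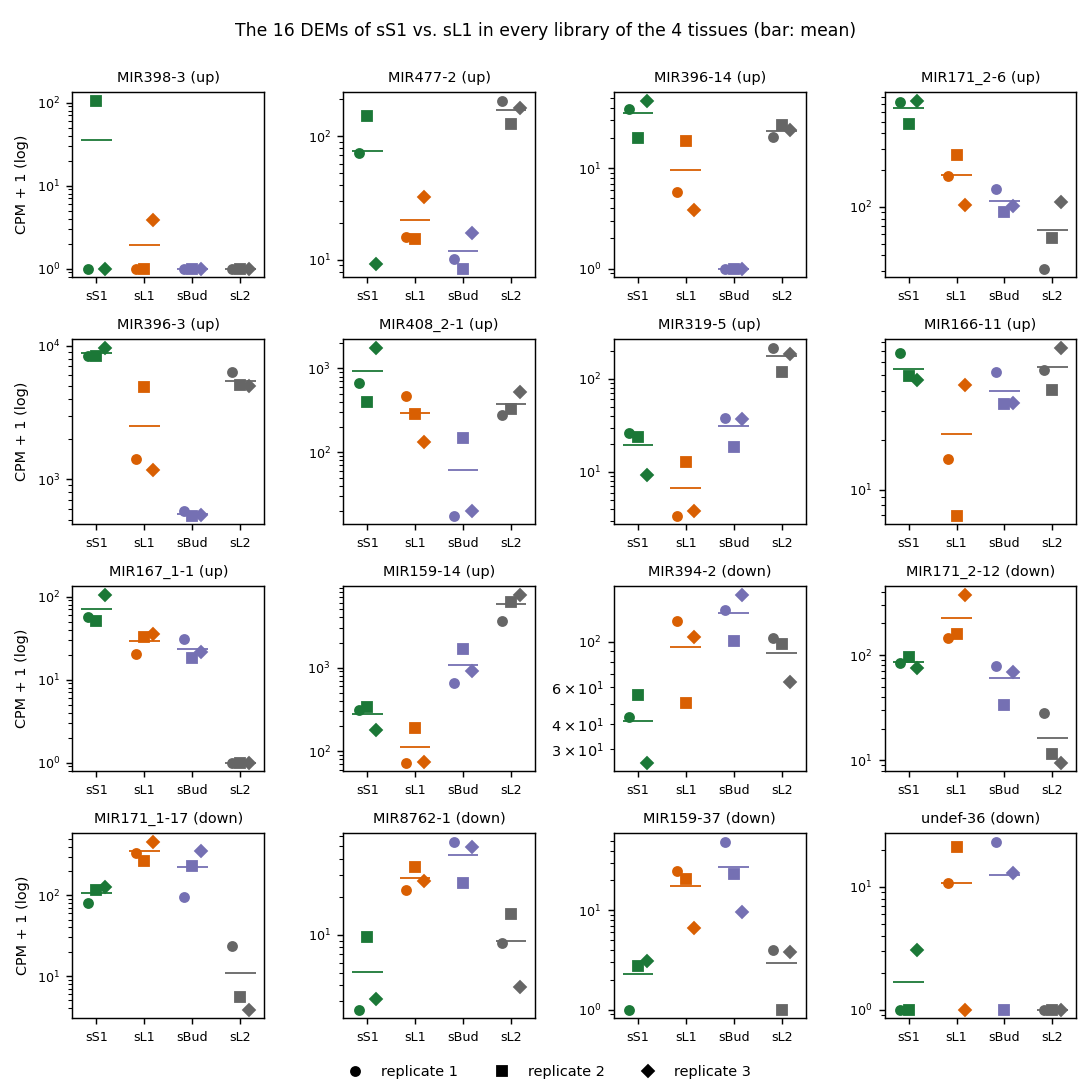
CPM + 1 (log scale) of each DEM in every library of sS1, sL1, sBud and sL2, with a symbol for each replicate number and a bar at the mean. sL1 replicate 2 (square) was the sL1 library nearest to sS1 for cas-MIR396-3, cas-MIR396-14 and cas-MIR171_2-6, and cas-MIR398-3 was high in sS1 replicate 2 only.

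The miR171 family, which acts on GRAS transcription factors of the HAIRY MERISTEM group, held DEMs in both directions. cas-MIR171_2-6 had 465, 276 and 355 counts in sS1 libraries, against 74, 133 and 36 counts in sL1 libraries. In CPM this was 648 ± 146 in sS1 and 181 ± 80.4 in sL1 (SD, n = 3 each), with no overlap. It differed by 1.83 on the log2 scale (SE 0.43, adjusted p = 0.0741 by edgeR), and 2.26 (adjusted p = 0.0277 by edgeR) without sL1 replicate 2. sBud had 109.8 ± 25.3 CPM and sL2 had 64.1 ± 39.8 CPM (SD, n = 3 each), so sS1 also had the highest mean of the 4 tissues here.

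In the opposite direction, cas-MIR171_1-17 had 50, 66 and 60 counts in sS1 libraries, against 137, 134 and 161 counts in sL1 libraries. No library of one tissue reached the range of the other, and the log2 fold change was −1.73 (SE 0.54, adjusted p = 0.179 by edgeR). cas-MIR171_2-12 had 53, 55 and 36 counts in sS1 libraries, against 60, 80 and 131 counts in sL1 libraries. At −1.40 (SE 0.47) on the log2 scale it was a DEM, and at −0.78 without sL1 replicate 3, the library with the most counts of it, it was not. Shares of cas-MIR171_1-17 and cas-MIR171_2-6 within their subfamilies come from the counts that made them DEMs, so they are no separate result. They also depend on how reads matching several members were counted. cas-MIR171_1-17 made up 23.7%, 28.2% and 37.5% of the MIR171_1 counts in sS1 libraries, against 54.6%, 64.7% and 77.4% in sL1 libraries. cas-MIR171_2-6 made up 16.4%, 10.4% and 16.5% of the MIR171_2 counts in sS1 libraries, against 3.17%, 6.52% and 2.1% in sL1 libraries. Neither pair of ranges overlapped. Over the 12 tested members of the GRAS group, 1 DEM was higher and 2 were lower in sS1, against 4.50% and 2.70% of all tested IDs, and the median log2 fold change was −0.31.

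The families of cell proliferation and leaf shape, MIR396, MIR319 and MIR164, had 3 DEMs higher in sS1 among 29 tested IDs, 0 lower and a median log2 fold change of 0.71. All tested IDs together had 4.50% higher DEMs and a median of −0.01. Of the 3 DEMs, 2 were MIR396 and 1 was MIR319, and MIR164 held none. The median rested partly on 6 IDs with fewer than 10 counts over the 6 libraries, 5 of them MIR319 and 1 with no count at all in these libraries. Over the other 23 IDs it was 0.21, against −0.01 for the 177 such IDs among all tested. Without sL1 replicate 2, the group had 7 DEMs higher in sS1, 0 lower and a median of 0.91, and without the 5 most abundant IDs the median was 0.41. miR319 acts on TCP transcription factors, which restrain cell division at leaf margins in Arabidopsis. cas-MIR319-5 had 16, 13 and 4 counts in sS1 libraries, against 1, 6 and 1 counts in sL1 libraries. Its log2 fold change of 1.60 (SE 0.68) had an unadjusted p of 0.0256 by edgeR, the CPM ranges overlapped, and the level was highest in sL2 at 172.7 ± 49.6 CPM (SD, n = 3). Leaving out sL1 replicate 1, sL1 replicate 3, sS1 replicate 1 or sS1 replicate 2 ended the call, with log2 fold changes of 1.25, 1.41, 1.41 and 1.49. Without sL1 replicate 2 it was 2.82 and still a DEM. The call was also lost with the 6 libraries only (1.54) and with the newer quasi-likelihood fit (1.59).

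miR164 acts on NAC transcription factors of the CUP-SHAPED COTYLEDON group, which keep organ boundaries apart. cas-MIR164_2-1 had 676, 991 and 809 counts in sS1 libraries, against 329, 426 and 303 counts in sL1 libraries. It averaged 1486 ± 372 CPM in sS1 and 831 ± 35.8 CPM in sL1 (SD, n = 3 each), with no overlap. The log2 fold change of 0.84 (SE 0.25, adjusted p = 0.152 by edgeR) was under the DEM threshold and passed it at 1.09 without sS1 replicate 1, the sS1 library with the lowest level.

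miR166 was the largest part of both tissues. Its 32 tested members had 1 DEM, where 7.21% of all tested IDs were DEMs, and a median log2 fold change of 0.08 (−0.02 with library size only). A 95% interval inside a 2-fold change was found for 10 members, against 44 of all 222 tested IDs. cas-MIR166-4, the most abundant ID, had 302437, 186047 and 194851 counts in sS1 libraries, against 99956, 162442 and 117015 counts in sL1 libraries. It averaged 400100 ± 74840 CPM in sS1 and 297800 ± 50140 CPM in sL1 (SD, n = 3 each), with overlap and a log2 fold change of 0.43 (SE 0.16). Within the family, the shares of cas-MIR166-4 and cas-MIR166-41 did not overlap between the tissues. As parts of the same total, they are not separate results. cas-MIR166-4 made up 72.5%, 67.4% and 71.4% of the family in sS1 libraries, against 60.4%, 63.5% and 60.7% in sL1 libraries. cas-MIR166-41, the next member, made up 20%, 23.8% and 20.6% in sS1 libraries, against 30.1%, 27.8% and 30% in sL1 libraries. The share of cas-MIR166-2, the member after these, overlapped, at 3.65%, 3.91% and 4.33% in sS1 libraries, against 3.32%, 4.04% and 3.71% in sL1 libraries. These shares describe the counts as deposited and depend on how reads of near-identical members were assigned.

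Minor members of MIR166 differed in both directions. The DEM, cas-MIR166-11, had 43, 28 and 22 counts in sS1 libraries, against 6, 3 and 15 counts in sL1 libraries. On the log2 scale it differed by 1.41 (SE 0.55), and leaving out sL1 replicate 1, sL1 replicate 2 or sS1 replicate 1 ended the call, at 1.22, 1.01 and 1.28. cas-MIR166-32 had 456, 580 and 409 CPM in sS1 libraries, against 1050, 672 and 1130 CPM in sL1 libraries. These did not overlap, and the log2 fold change of −0.98 (SE 0.27, adjusted p = 0.136 by edgeR) passed the 2-fold line at −1.11 without sL1 replicate 2 and at −1.09 without sS1 replicate 2. cas-MIR166-5 was likewise lower in every sS1 library (log2 fold change −0.68, SE 0.25). cas-MIR166-17, with 49, 18 and 31 counts in sS1 libraries and 11, 18 and 11 counts in sL1 libraries, overlapped, with a log2 fold change of 0.88 (SE 0.40). It passed the DEM threshold at 1.05 without sL1 replicate 2 and at 1.21 without sS1 replicate 2.

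Among 25 tested IDs of auxin signalling families, 3 were higher and 2 lower in sS1 at an unadjusted p below 0.05. Over all 222 tested IDs, 17 were higher and 13 lower at that threshold. miR390 starts the release of small RNAs from TAS3 transcripts against auxin response factors. Its most abundant member, cas-MIR390-1, had 552, 552 and 364 counts in sS1 libraries, against 718, 702 and 558 counts in sL1 libraries. It averaged 859 ± 102 CPM in sS1 and 1566 ± 170 CPM in sL1 (SD, n = 3 each), and no library overlapped. A log2 fold change of −0.87 (SE 0.21, adjusted p = 0.0741 by edgeR) was under the DEM threshold. Its level was 3067 ± 368 CPM in sBud and 1683 ± 323 CPM in sL2 (SD, n = 3 each), so sS1 had the lowest mean of the 4 tissues.

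cas-MIR160-2, of a family that acts on repressing auxin response factors, had 123, 158 and 86 counts in sS1 libraries, against 182, 123 and 148 counts in sL1 libraries. These overlapped, with a log2 fold change of −0.77 (SE 0.31). miR167, which acts in Arabidopsis on the activating auxin response factors ARF6 and ARF8, had members that were higher in sS1 at the unadjusted threshold. cas-MIR167_2-1 had 6531, 4778 and 5408 counts in sS1 libraries, against 2062, 4354 and 1471 counts in sL1 libraries. It had a log2 fold change of 0.74 (SE 0.28), and of 1.18 (SE 0.24, adjusted p = 0.027 by edgeR) without sL1 replicate 2. cas-MIR167_2-3 did not overlap, with a log2 fold change of 0.60 (SE 0.25). The DEM cas-MIR167_1-1 had 36, 29 and 50 counts in sS1 libraries, against 8, 16 and 12 counts in sL1 libraries. It differed by 1.30 on the log2 scale (SE 0.45), it had 0 counts in the sL2 libraries, and leaving out sL1 replicate 1 or sS1 replicate 3 ended the call at 1.09 and 0.95. Over the group, 1 DEM was higher and 0 were lower in sS1, near the 4.50% and 2.70% of all tested IDs. Without regard to p, 10 were higher and 15 lower, where all tested IDs had 107 and 111, and the median log2 fold change was −0.16 (0.09 without sL1 replicate 2).

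The families that act on MYB transcription factors had 34 tested IDs, 1 DEM higher and 1 lower in sS1, near the 4.50% and 2.70% of all tested IDs, and a median log2 fold change of −0.07 (−0.30 over the 25 with at least 10 counts in the 6 libraries). miR159 acts on GAMYB-like MYB factors. cas-MIR159-1, the second most abundant ID, had 171087, 166159 and 130677 counts in sS1 libraries, against 143643, 165442 and 122410 counts in sL1 libraries. Scaled by library total and TMM factor, this was 275800 ± 11330 CPM in sS1 and 339900 ± 11170 CPM in sL1 (SD, n = 3 each), with no overlap. At −0.30, its log2 fold change (SE 0.09, adjusted p = 0.179 by edgeR) had a 95% interval of −0.50 to −0.10, which lies inside a 2-fold change.

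Rare members of miR159 differed more. cas-MIR159-14 had 197, 196 and 86 counts in sS1 libraries, against 30, 95 and 26 counts in sL1 libraries. The CPM overlapped by a single pair, sS1 replicate 3 at 179 and sL1 replicate 2 at 188. On the log2 scale the difference was 1.29 (SE 0.44), and 1.98 (adjusted p = 0.0277 by edgeR) without sL1 replicate 2. It was 1.06, and no longer a DEM, without sL1 replicate 1. Both tissues were below sBud at 1084 ± 533 CPM and sL2 at 5718 ± 1943 CPM (SD, n = 3 each). cas-MIR159-37 had 0, 1 and 1 counts in sS1 libraries, against 10, 10 and 2 counts in sL1 libraries. With 2 counts in all in sS1, its summed and scaled counts were 14.7 times higher in sL1, with a counting interval of 3.6 to 129. cas-MIR159-6 had 28, 22 and 21 counts in sS1 libraries, against 35, 29 and 39 counts in sL1 libraries. It did not overlap in CPM and had a log2 fold change of −0.99 (SE 0.34), just inside the 2-fold line, which it passed at −1.15 without sL1 replicate 2 and at −1.09 with library size only.

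Copper-linked miRNAs gave DEMs that rested on few libraries. miR408 and miR398 act on copper proteins such as plantacyanins, laccases and superoxide dismutases. cas-MIR408_2-1 had 432, 229 and 848 counts in sS1 libraries, against 197, 143 and 46 counts in sL1 libraries. A log2 fold change of 1.67 (SE 0.71) came with overlapping libraries, and leaving out sL1 replicate 2, sL1 replicate 3 or sS1 replicate 3 ended the call at 1.69, 1.32 and 0.89. So did library size only (1.51), filterByExpr (1.49) and the removal of the 5 most abundant IDs (1.48). cas-MIR398-3 had 0, 60 and 0 counts in sS1 libraries, against 0, 0 and 1 counts in sL1 libraries. The whole difference came from sS1 replicate 2, since the fitted log2 fold change of 5.09 was −2.16 without it. With 1 count in sL1, its summed and scaled counts were 45 times higher in sS1, with a counting interval of 7.78 to 1810. Leaving out sL1 replicate 1, 2 or 3 also ended its call, at 4.62, 4.58 and 7.33, and it was no DEM with DESeq2, limma-voom or the newer quasi-likelihood fit. The 17 tested IDs of the nutrient and copper group had 2 DEMs higher in sS1 and 0 lower, against 4.50% and 2.70% of all tested IDs, and 0 in either direction without sL1 replicate 2. The median log2 fold change was −0.27, but 0.21 without that library and 0.14 over the 13 IDs with at least 10 counts in the 6 libraries.

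The other DEMs belonged to smaller families. cas-MIR394-2, of a family that acts on the F-box gene LEAF CURLING RESPONSIVENESS in Arabidopsis, had 27, 31 and 12 counts in sS1 libraries, against 52, 25 and 37 counts in sL1 libraries. A log2 fold change of −1.19 (SE 0.42) came with overlap, and leaving out sL1 replicate 1, sL1 replicate 3 or sS1 replicate 3 ended the call at −0.91, −1.06 and −0.90. It was the 1 DEM of the 5 tested IDs of the F-box group, where 2.70% of all tested IDs were DEMs lower in sS1. cas-MIR477-2 had 46, 83 and 4 counts in sS1 libraries, against 6, 7 and 11 counts in sL1 libraries. sS1 replicate 3, at 8.3 CPM, lay below every sL1 library, and the log2 fold change was 1.94 (SE 0.71). Leaving out sL1 replicate 1 or sS1 replicate 2 ended that call at 1.77 and 1.11, as did limma-voom at 1.34, and without sS1 replicate 3 it was 2.51 (adjusted p = 0.0375 by edgeR).

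cas-MIR8762-1 had 1, 5 and 1 counts in sS1 libraries, against 9, 17 and 9 counts in sL1 libraries. Summed and scaled counts were 6.66 times higher in sL1, with a counting interval of 2.91 to 17.8, no library overlapped, and the adjusted p was 0.0983 by edgeR. cas-undef-36, an ID without a family name, had 0, 0 and 1 counts in sS1 libraries, against 4, 10 and 0 counts in sL1 libraries. Its scaled ratio was 18.6 times higher in sL1 with a counting interval of 2.84 to 788, and leaving out sL1 replicate 1, sL1 replicate 2, sS1 replicate 1 or sS1 replicate 2 ended the call, at fitted log2 fold changes of −3.71, −2.63, −3.09 and −3.19. It was no DEM with DESeq2 or limma-voom. A pair of further abundant IDs differed by less than 2-fold without overlap. cas-MIR6149-1 averaged 3708 ± 364 CPM in sS1 and 6077 ± 1657 CPM in sL1 (SD, n = 3 each), and cas-undef-156 averaged 25550 ± 2610 CPM in sS1 and 19280 ± 1841 CPM in sL1 (SD, n = 3 each). Their log2 fold changes were −0.71 (SE 0.27) and 0.41 (SE 0.15).

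Several groups held no DEM in either direction. The silencing machinery group, miR162 (against DICER-LIKE1), miR168 (against ARGONAUTE1) and miR403 (against ARGONAUTE2), had 0 DEMs among 16 tested IDs, where 7.21% of all tested IDs were DEMs. Without regard to p, 3 were higher and 13 lower in sS1 (107 and 111 over all tested IDs), with a median log2 fold change of −0.35. Of these, 6 had a 95% interval inside a 2-fold change, against 44 of all 222 tested IDs. The phase change group, miR156 and miR535 against SPL factors and miR172 against AP2-like factors, had 0 DEMs among 19 IDs and a median of 0.07 (−0.01 with library size only, 0.23 over the 13 IDs with at least 10 counts in the 6 libraries). miR482, which acts on disease resistance genes of the NBS-LRR class, had 0 DEMs among 7 IDs and a median of 0.19. A miss of the threshold does not show equal levels, and most intervals of these groups reach beyond a 2-fold change.

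Among the most abundant IDs the comparison was more precise. Of the 20 with the highest mean CPM over the 6 libraries, 15 had a 95% interval inside a 2-fold change, against 44 of all 222 tested IDs. A total of 8 had an unadjusted p below 0.05 (30 of all 222 tested IDs did), with 6 higher and 2 lower in sS1. cas-MIR162_2-2 averaged 27790 ± 2325 CPM in sS1 and 35640 ± 8992 CPM in sL1 (SD, n = 3 each), with a log2 fold change of −0.36 (SE 0.19), and −0.45 with an unadjusted p below 0.05 by edgeR without sL1 replicate 2. The fold changes of cas-MIR166-41, cas-MIR166-2 and cas-MIR482-14 were −0.23, 0.31 and 0.29 on the log2 scale, each with an interval that held 0 and lay inside a 2-fold change. Without sL1 replicate 2, cas-MIR166-2 and cas-MIR482-14 were 0.49 and 0.42 higher in sS1 on the log2 scale, with unadjusted p below 0.05 by edgeR.

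**Figure D3:**
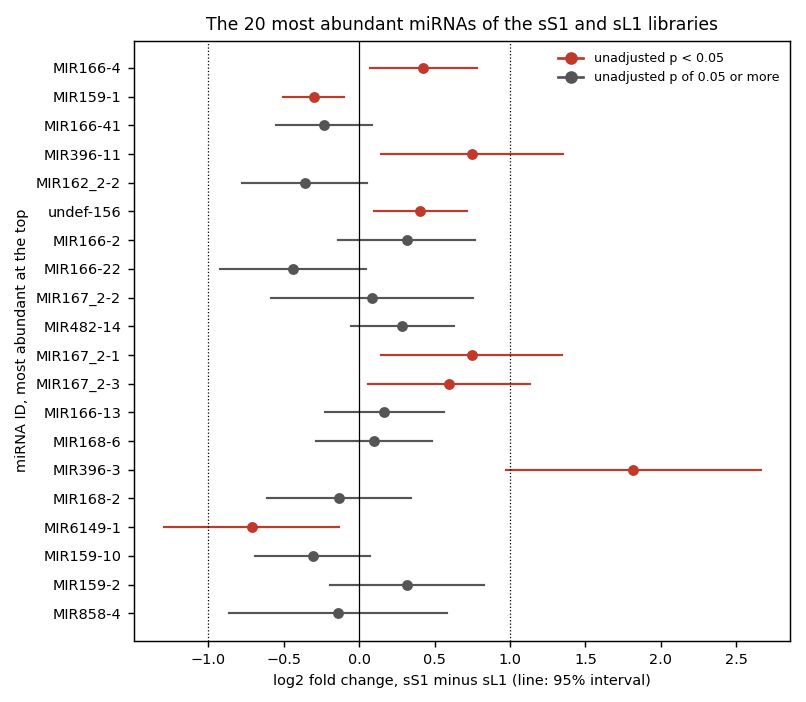
Log2 fold changes of sS1 minus sL1 with 95% intervals for the 20 most abundant IDs, the most abundant at the top, in red where the unadjusted p was below 0.05. For 15 IDs the interval lies between the dotted 2-fold lines, and cas-MIR396-3 at 1.82 is the only DEM.

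The conserved miRNAs that were also measured by qRT-PCR, chosen from these tissues, were matched by family and member number. Some names of the miR162 and miR167 families match an ID in each of both subfamilies. None of the matched IDs was a DEM between sS1 and sL1. By qRT-PCR, the authors describe miR159-2, miR159-45, miR319-2 and miR319-9 as specific to sL1 and sL2. They describe miR162-2 and miR166-22 as specific to sS1. In mean CPM, cas-MIR159-2 was higher in sS1, and cas-MIR159-45, cas-MIR162_2-2 and cas-MIR166-22 were lower. The qRT-PCR values were scaled to reference genes and CPM are library shares, so the measures are unlike. cas-MIR159-2 averaged 4378 ± 1204 CPM in sS1 and 3515 ± 775 CPM in sL1 (SD, n = 3 each), with a 95% interval of the log2 fold change of −0.19 to 0.83. cas-MIR168-6 averaged 6875 ± 788 CPM in sS1 and 6418 ± 273 CPM in sL1 (SD, n = 3 each), with an interval of −0.28 to 0.48. cas-MIR166-22 had an interval of −0.92 to 0.04 and cas-MIR167_2-2 one of −0.59 to 0.75. These 4 intervals, with all libraries, lie inside a 2-fold change. Without sL1 replicate 2, cas-MIR159-2 was 0.49 higher in sS1 on the log2 scale (SE 0.25). The rarer cas-MIR159-45 (−1.87 to 0.62) and cas-MIR167_1-2 (−1.01 to 0.68) had wider intervals. cas-MIR162_1-2, cas-MIR319-2 and cas-MIR319-9 had at most 3 counts in any sS1 or sL1 library, so no fold is given.

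Counts summed over a family do not depend on how reads were divided among its members, provided each read was counted once and within a single family. Whether this was so is not given in the sources used here. In shares of all counts, MIR166 made up 51.1 ± 4.43% of sS1 and 46.6 ± 3.63% of sL1 libraries (SD, n = 3 each). MIR159 made up 26.5 ± 2.98% of sS1 and 34.6 ± 3.41% of sL1 libraries, and its ranges did not overlap. MIR396 made up 8.68%, 10% and 11% of sS1 libraries, against 4.92%, 9.46% and 3.79% of sL1 libraries. Only sL1 replicate 2 lay inside the sS1 range of MIR396.

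Of 42 tested families, 4 (9.52%) were DEMs, with 0 at an adjusted p below 0.05 by edgeR, where the smallest was 0.135, and 5 at an unadjusted p below 0.05. DESeq2 gave 3 families at an adjusted p below 0.05. MIR164_2, MIR408_2 and MIR477 were higher in sS1, with log2 fold changes of 1.01, 2.05 and 1.70, and MIR8762 was lower at −2.63. MIR8762 kept its call with any library left out. Leaving out sL1 replicate 3 or sS1 replicate 3 ended the call of MIR164_2 (at 0.94 and 0.59) and of MIR408_2 (at 1.66 and 0.82). MIR164_2 was also no DEM with RLE size factors (0.92), DESeq2 or limma-voom. MIR477 lost its call without sL1 replicate 1 (1.72) or sS1 replicate 2 (1.07), and without sS1 replicate 3 it was 2.15 (adjusted p = 0.014 by edgeR). The TMM factors from family counts ranged from 0.632 to 1.29 over the 12 libraries, wider than the 0.857 to 1.18 from single IDs. With the factors of the single IDs, the log2 fold changes shifted downwards by a median of 0.16, and 4 families (9.52%) had an adjusted p below 0.05 by edgeR. These were MIR159 at −0.29 (adjusted p = 0.0212), MIR390 at −0.75 (0.0328), MIR164_2 at 0.81 (0.0449) and MIR8762 at −2.65 (0.0328). With family factors MIR159 was −0.12, and 0.06 without sL1 replicate 2 or 0.03 without sS1 replicate 2, so its direction did not hold under that scaling. MIR396 had 0.89 with family factors, 0.79 with single-ID factors and 0.71 with library size only, and 1.73 (adjusted p = 0.00515 by edgeR) without sL1 replicate 2. Further families that became DEMs without that library, all higher in sS1, were MIR167_2 (1.05), MIR319 (1.48), MIR395 (1.185), MIR408 (1.60) and MIR535 (1.035).

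**Figure D4:**
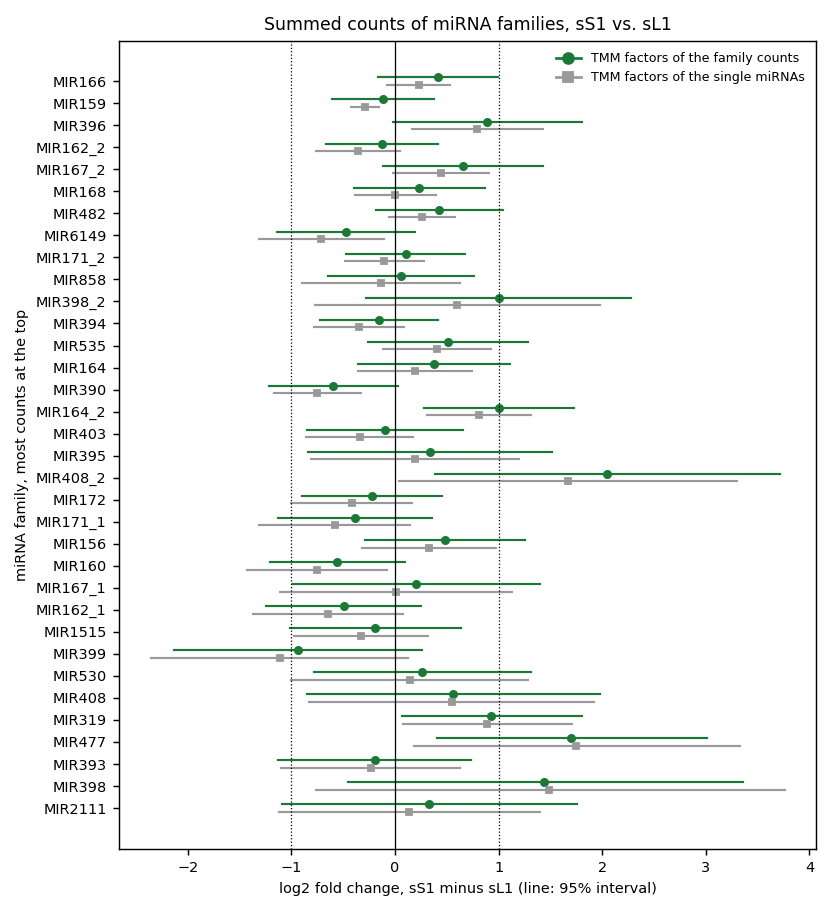
Log2 fold changes of sS1 minus sL1 with 95% intervals for the 34 families with the most counts, with TMM factors from the family counts (green) and from the single miRNAs (grey). The grey points of most families lie to the left of the green ones, by a median of 0.16 over all tested families, and MIR8762 falls outside the families drawn.

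Without sL1 replicate 2, 22 IDs (9.91%) were DEMs, 15 higher and 7 lower in sS1. Of the 16 DEMs with all libraries, 12 were among them, 4 were lost and 10 others joined. The median log2 fold change of all tested IDs was 0.11. An adjusted p below 0.05 was reached by 6 IDs (2.70%), all higher in sS1. These were cas-MIR396-3, cas-MIR396-11, cas-MIR396-14, cas-MIR167_2-1, cas-MIR171_2-6 and cas-MIR159-14, with log2 fold changes from 1.18 to 3.11 and adjusted p between 9.91e-07 and 0.0423 (edgeR). The difference to the result with all libraries was seen mainly among IDs higher in sS1. In sL1 replicate 2 the level was the highest of its tissue for 9 of the 17 IDs higher in sS1 at an unadjusted p below 0.05, and the lowest of its tissue for 9 of the 13 lower ones. Over all tested IDs it was the highest for 68 and the lowest for 81 of 222. The fit then has a pair of sL1 libraries, whose spread is taken to be like that of the other tissues. The library left out was chosen for counts near those of an sS1 library, which tends to enlarge the differences. The adjusted p-values without it do not allow for that choice.

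**Figure D5:**
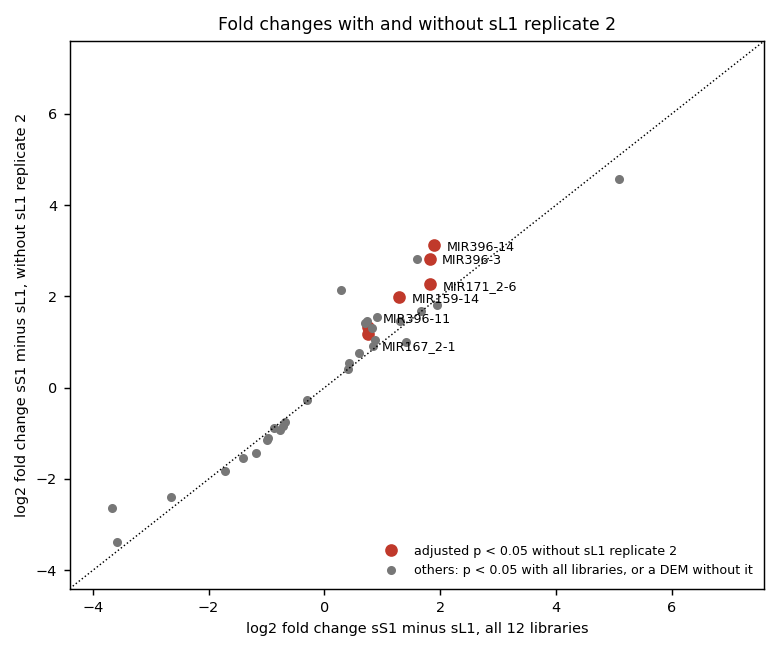
The log2 fold change of sS1 minus sL1 with all libraries (horizontal axis) and without sL1 replicate 2 (vertical axis) for the 35 IDs with an unadjusted p below 0.05 with all libraries or a DEM call without sL1 replicate 2, with a dotted line of equality. The 6 IDs in red, at 1.18 to 3.11 without this library, all lie above the line.

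Under 17 alternatives of scaling, filter, tool and libraries, 6 of the 16 DEMs kept their call throughout, namely cas-MIR396-3, cas-MIR396-14, cas-MIR171_2-6, cas-MIR171_1-17, cas-MIR159-37 and cas-MIR8762-1. The log2 fold change ranged from 1.53 to 2.82 for cas-MIR396-3, from 1.61 to 2.26 for cas-MIR171_2-6 and from −1.86 to −1.46 for cas-MIR171_1-17.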

How the data were processed

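Small RNA counts of 12 libraries (4 tissues, 3 libraries each) were used. Per the methods, the authors discarded reads shorter than 20 nt and reads of other ncRNA classes, and aligned what remained to miRBase plant miRNAs with up to 2 mismatches. The deposited values are raw counts per miRNA ID, with no normalization, and the authors' own test was DESeq. HISAT2 is named for the comparison of reads with genomes and the transcriptome. The counting rule for reads matching several IDs is not given in the sources used here. Library totals ranged from 387015 to 746562.

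In R 4.3.3, IDs reaching 10 counts in total were fitted with edgeR 4.0.16 (glmQLFit and glmQLFTest, TMM, 1 term per tissue, no block), and p-values were adjusted over all 222. CPM use TMM-scaled library sizes. The same test was run on family sums. Intervals are 95% and, for summed counts, cover counting error only, since PCR products are not independent molecules. The fit was also run on simulated libraries as a check of the code, and no result given here rests on it. Named are all DEMs, other IDs with an unadjusted p below 0.05, the 10 most abundant IDs, the qRT-PCR miRNAs, and families past the threshold or with the most counts. Others (cas-MIR396-6, cas-MIR396-18, cas-MIR394-1 and cas-MIR171_2-8) were named after their values were seen. The comparison, the miRNA groups and the rules were chosen with earlier results of these data known.

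Alternatives were RLE factors, library size only, limma-voom (limma 3.58.1), DESeq2 1.42.0, removal of the 5 most abundant IDs, other filters, the 6 libraries alone, a replicate block, joined subfamilies and each library left out. Those chosen after seeing the data were the newer quasi-likelihood fit of edgeR, family tests with single-ID factors, counts at adjusted p under each setting, group medians over IDs with at least 10 counts in the 6 libraries, and group values without sL1 replicate 2. No sequences of the miRNAs were used here.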

Additional observations from a re-analysis of the deposited data

Results flagged for a closer look

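Among IDs below the minimum of 10 counts, which entered no test, 3 had more than the 3 counts that a count of 0 allows in an sL1 library. cas-MIR535-3 had 5 counts in sL1 replicate 2 (8 over all libraries), cas-MIR166-26 had 4 counts in sL1 replicate 2 (6 over all), and cas-MIR1510-2 had 4 counts in sL1 replicate 1 (4 over all). In each case, no other sS1 or sL1 library exceeded 3 counts.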

How the results depend on the processing

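The number of DEMs was 12 to 22 under every change of tool, scaling, filter or libraries, against 16, and it was 30 with no minimum fold change and 0 at adjusted p. The number at adjusted p, 0 in the result given, was 5 with DESeq2, 2 with limma-voom, 12 with no filter, 2 with the 6 libraries only, 1 with the newer quasi-likelihood fit, and 0 to 6 with 1 library left out. Family DEMs, 4 in the result given, were 2 with library size only, 2 with single-ID factors, 0 at adjusted p and 2 to 10 with 1 library left out. The direction of cas-MIR167_2-2 (0.08) was −0.058 with filterByExpr, −0.015 with the 6 libraries only, −0.016 without the 5 most abundant IDs, and −0.214 to 0.322 with 1 library left out. cas-MIR168-6 was −0.047 with filterByExpr, cas-MIR167_1-2 was −0.387 to 0.054 and cas-MIR398-3 −2.16 to 7.33 with 1 library left out. The cause was not tested for any of these. Of the other values of named miRNAs, 649 kept direction and side of the threshold, 38 lost the call and 23 gained it.

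Deviations of same-numbered libraries had correlations of −0.13, −0.17 and 0.08, against −0.186 to 0.276 for sS1 and sL1 libraries of unlike number. These few values show no pairing by replicate number, but cannot decide whether same-numbered libraries share plants. With the replicate block, 19 IDs were DEMs, without cas-MIR408_2-1 (1.60), and 1 had an adjusted p below 0.05. The family DEMs with the block were 3, MIR396 (1.08), MIR477 (1.60) and MIR8762 (−2.69), and neither MIR164_2 nor MIR408_2.

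Depth limits the rarer IDs: 45 of the 222 had fewer than 10 counts over the 6 libraries, and the sS1 libraries were deeper than 2 of the 3 sL1 libraries.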
